A study of Mus musculus with 38 samples.

Results

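Mice that lack hexokinase 2 in their intestinal epithelial cells were examined early in treatment with dextran sodium sulfate (DSS). For this, 8 libraries taken on day 3 of DSS were compared with 5 libraries of untreated mice of the same genotype. The untreated libraries are a series of their own, so the contrast also holds any difference between the library series. These 13 libraries were taken by their titles from a series of 38, which also holds littermate controls and a later time point. KO denotes C57BL/6 mice whose loxP-flanked Hk2 gene is removed by a Cre recombinase driven from the Villin promoter, which is active along the intestinal epithelium, so that blood, stromal and nerve cells keep the gene. WT denotes the co-housed littermates, which carry the same floxed alleles without the deletion, so that the floxed alleles are shared by all groups. Day 3 mice were males of 10 to 12 weeks that had drunk 1.5% DSS. Untreated mice are described in the labels only as the basal cohorts, 9 to 11 or 86 to 92 weeks old, and neither the age nor the sex of a given day 0 mouse is stated. Each library is one animal, named here by its title (d3_KO_349 is a KO mouse on day 3). The material is given as intestinal epithelial cells in the labels of the samples and as colon tissue in the series text. WT day 0 (4 libraries) and WT day 3 (7 libraries) are used below only to show where the KO change differs.

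Hexokinases phosphorylate glucose on its entry into glycolysis. Hexokinase 2 is the inducible isoform of the family, and it can bind the outer mitochondrial membrane at the channel VDAC1, near the machinery of cell death, while hexokinase 1 is expressed in most tissues. DSS is a sulfated polysaccharide that injures the colonic epithelium, lets bacterial products reach the mucosa and is followed by immune infiltration and by regrowth of the crypts. Day 3 comes early in this course.

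The day of DSS cannot be told apart from the library series here, because all day 0 libraries belong to a series of their own. Total counts were 10.5 to 17.5 M per library in KO day 0 and 27.6 to 47.6 M in KO day 3, so that 3 counts correspond to 0.172 to 0.286 counts per M (CPM) on day 0 and to 0.0631 to 0.109 CPM on day 3. Histone genes took 0.266 to 0.413% of counts on day 0 and 0.0173 to 0.0355% on day 3. Mitochondrial ribosomal RNA took 6.25 to 45.6% and 0.630 to 1.67%, and small noncoding RNA genes took 1.69 to 4.42% and 0.0287 to 0.148%. Genes named Hist or mt- and small noncoding RNA genes are therefore left out of the counts by gene group below, although the fit was made on the whole table. Library d0_KO_32 stood apart, with 61.7% of its counts from the mitochondrial genome and a scaling factor of 0.514. It also had Xist and almost no counts of Y-linked genes, while the other KO libraries of both days had the reverse. The library labelled d3_KO_345 stood apart through the targeted gene itself, and results are given with and without it.

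Hk2 (ENSMUSG00000000628, chromosome 6, bases 82725025 to 82774454, minus strand, GRCm38) was counted in every KO library; it lay below WT on day 0, and the genotypes overlapped on day 3. Levels are CPM scaled by the trimmed mean of M values (TMM). KO day 0 libraries had 58.1, 31.4, 74.5, 85.7 and 111 CPM, and those of WT day 0 had 248, 384, 281 and 442 CPM, so that the genotypes did not overlap before DSS. On day 3 the KO libraries other than d3_KO_345 had 71.3 to 131 CPM, and the WT libraries had 99.8 to 225 CPM. The library labelled d3_KO_345 had 442 CPM, above all WT libraries of its own day and close to the highest WT library of day 0, which goes against its label. It also had the highest sums of macrophage and neutrophil markers, 170 CPM each. The part of such cells in its Hk2 level was not tested. The files count reads over the whole gene, the labels do not say which exons are floxed, and reads of an overlapping antisense gene, Gm17034, are not separated because strand was ignored, so this level does not measure how complete the deletion was.

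With all 13 libraries the log2 fold change of Hk2 from day 0 to day 3 was 1.04 (SE 0.42, adjusted p = 0.0475, edgeR quasi-likelihood test). Without d3_KO_345 it was 0.56 (adjusted p = 0.0602), and without d0_KO_32 as well it was 0.38 (adjusted p = 0.0977), so the change was smaller without the library whose level goes against its label. The call itself was close to the threshold and ended under 18 of 25 alternatives. Leaving out 1 library at a time ended it for 8 of the 13 libraries, namely d3_KO_345, d3_KO_349, d3_KO_350 and d3_KO_388 and, of day 0, d0_KO_24, d0_KO_32, d0_KO_53 and d0_KO_54 (edgeR adjusted p up to 0.106). In WT, by contrast, Hk2 fell by 0.93 on the log2 scale (adjusted p = 0.0031), and all 7 day 3 libraries lay below the lowest of the 4 day 0 libraries. The difference between the 2 changes was 1.97 (edgeR interaction, adjusted p = 0.19), which did not pass the threshold over all genes. In KO day 0 mice the mean Hk2 level was 72.2 ± 29.9 CPM (SD, n = 5), and in KO day 3 mice without d3_KO_345 it was 107 ± 22.1 CPM (SD, n = 7).

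Of the other hexokinases, Hk1 rose slightly, by 0.37 (SE 0.10, adjusted p = 0.0078, edgeR). Its KO levels were 199 to 233 CPM on day 0 and 216 to 317 CPM in 7 of the day 3 libraries, with the highest level in d3_KO_345. The log2 change was 0.21 with thinned counts, where it was not called, and 3 other alternatives also ended the call. Hkdc1, a hexokinase domain protein of gut epithelium, changed by -0.35 (edgeR adjusted p = 0.11) and was called lower under 7 of 25 alternatives. Hk3, the isoform of myeloid cells, was too low to be tested and lay at or below 0.323 CPM in every KO library except d3_KO_345, which had 1.58 CPM. Per kilobase of transcript the KO means on day 0 were 24.9 CPM for Hk1, 12.1 CPM for Hk2 and 10.9 CPM for Hkdc1. On day 3 they were 32.1, 24.9 and 8.58 CPM, where the Hk2 mean includes d3_KO_345. Hk1 thus had the highest mean per length of the 3 in KO on both days, whereas in WT day 0 it was Hk2, with 56.7 CPM against 27.7 CPM for Hk1.

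**Figure D1:**
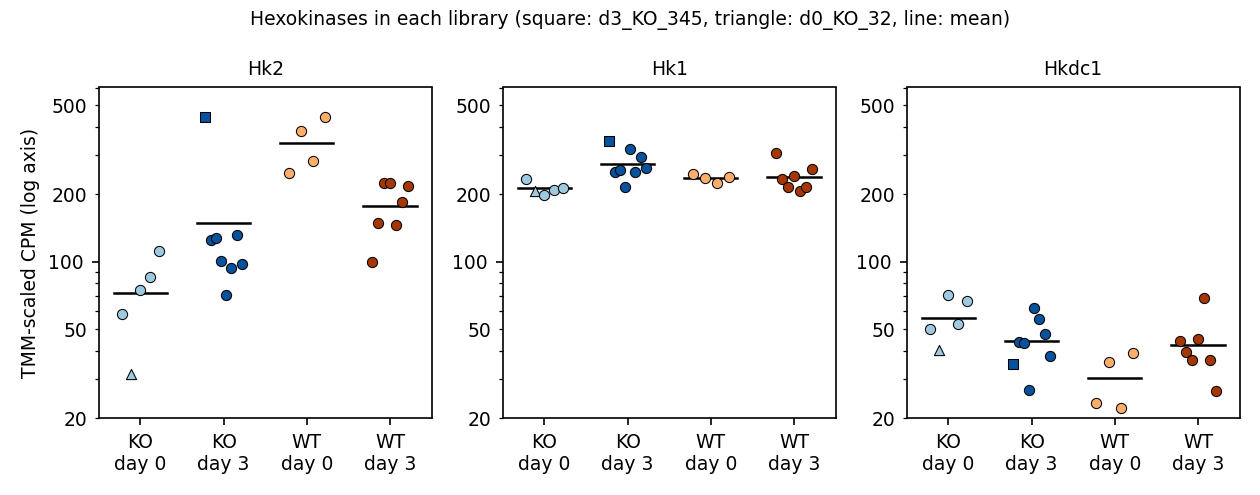
TMM-scaled CPM (log axis) of Hk2, Hk1 and Hkdc1 in each library of KO and WT mice on days 0 and 3; each point is a library, the line is the group mean, the square is the library labelled d3_KO_345 and the triangle is d0_KO_32. The square lies at 442 CPM of Hk2, while the other KO libraries of day 3 lie between 71.3 and 131 CPM.

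Across the transcriptome 8323 of 16085 genes tested were called (51.7%, adjusted p under 0.05), 5257 of them higher (32.7%) and 3066 lower (19.1%) on day 3. Among protein-coding genes outside the dropped classes, 6683 of 13455 were called (49.7%), with 5006 higher (37.2%) and 1677 lower (12.5%). Among those calls, 760 rises and 496 falls reached 2-fold. Without d3_KO_345, 8248 of 15861 genes were called (52%), and 7914 of the 8234 calls that could be retested were kept in the same direction. Calls are thus so common in this contrast that the count of each list below is read against 37.2% higher and 12.5% lower, and a list near these shares does not stand apart from protein-coding genes as a whole.

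The split between higher and lower calls depends on the scaling. The median log2 fold change was 0.12 over all genes tested and 0.17 over protein-coding genes, and with DESeq2 size factors it was -0.012 and 0.040. With those size factors 3516 genes were called higher and 4044 lower, and with the 3 dropped classes removed before scaling 3931 were higher and 3547 lower. A TMM scale taken over the 13 KO libraries alone gave 4514 higher and 3380 lower. Protein-coding genes moved as well, with 3327 higher and 2532 lower under DESeq2 size factors. With the 3 dropped classes removed before scaling 3738 of them were higher and 2251 lower. Counts of a list under another scaling are therefore read against these and not against 37.2% and 12.5%. The lower calls were frequent among noncoding genes. Of 1707 long noncoding RNA genes tested, 1029 were lower (60.3%) and 73 higher, 54 of 57 histone genes were lower, and 122 of 182 small noncoding RNA genes were lower. The median log2 fold change of long noncoding genes was -1.10 in KO and -1.29 in WT, so this shift was of similar size in both genotypes.

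**Figure D2:**
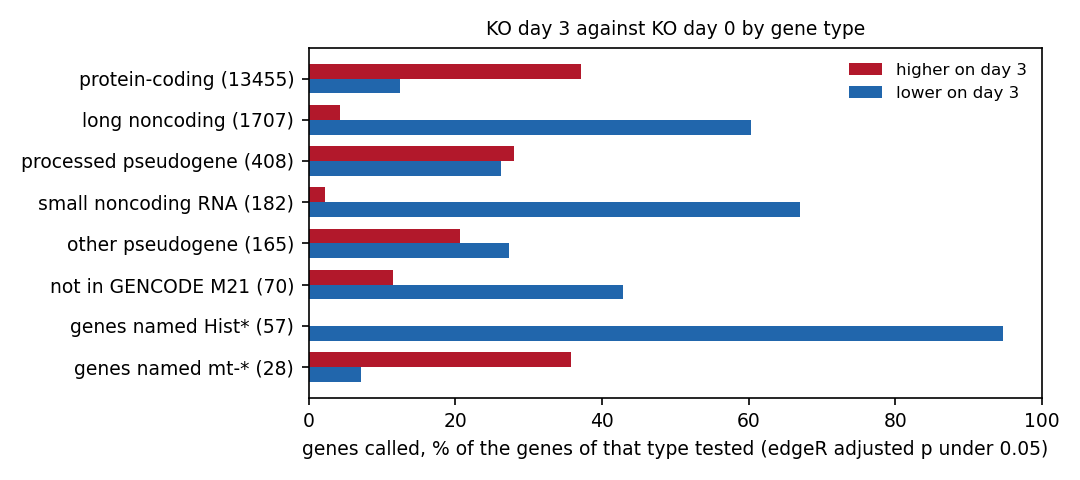
Share of tested genes called higher and called lower on day 3 against day 0 in KO libraries, by gene type (percent of genes tested, with the number tested beside each type). Long noncoding, small noncoding and histone genes were called lower in 60.3%, 67% and 94.7%, against 12.5% of protein-coding genes.

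The 12 largest rises and the 12 largest falls were taken among protein-coding genes with an average log2 CPM of at least 3 that were called with and without d3_KO_345 and showed no overlap between the days. Such separation was found in 2716 of 13455 protein-coding genes upwards (20.2%) and in 713 downwards (5.3%). S100a11, a calcium-binding protein of the cell periphery, had 7.32, 10.4, 3.80, 5.33 and 5.42 CPM on day 0 and from 40.5 through a median of 90.4 to 180 CPM on day 3. Its log2 fold change was 3.85 (SE 0.39, edgeR adjusted p = 9.2e-07), and 3.63 without d3_KO_345. Phlda1, a pleckstrin homology protein of regenerating crypts, had 3.72 to 7.62 CPM on day 0 and 48.6 to 181 CPM on day 3, a change of 3.64 (SE 0.36), or 3.32 without d3_KO_345.

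Casp14, a caspase of cornifying epithelium, rose by 3.62 (SE 0.51) from 0.223 to 1.77 CPM on day 0 to 4.43 to 22.4 CPM on day 3. Krt36, a hair and squamous keratin, rose by 3.16 (SE 0.59). The secreted interleukin-1 antagonist Il1rn rose by 2.41 (SE 0.36) and tissue factor, F3, the starter of coagulation, by 2.35 (SE 0.42). For both of these d3_KO_345 was far above the rest, at 373 CPM of Il1rn against at most 155 CPM and at 189 CPM of F3 against at most 70.4 CPM, and without it the changes were 2.04 and 1.91. All 6 genes also rose in WT by edgeR, where their log2 changes were 3.81, 3.25, 1.96, 2.70, 1.67 and 1.54 in the order given.

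Other large changes had small errors and were of similar size in both genotypes. Anp32b, a histone chaperone of the nuclear matrix, had 10.9 to 14.5 CPM on day 0 and 101 to 122 CPM on day 3, with a log2 change of 3.03 (SE 0.08) in KO and 3.04 in WT. Hmgn5, a nucleosome-binding protein, rose by 2.96 (SE 0.09) in KO and 3.02 in WT, and the RNA-binding protein Hnrnpa3 by 2.52 (SE 0.11) and 2.24. Emc1, a subunit of the endoplasmic reticulum membrane complex, fell by 1.99 (SE 0.06) in KO and by 2.10 in WT, and the transcriptional coregulator Tcf20 fell by 1.71 (SE 0.05) and by 1.80. Tcf20 stood at 190 to 196 CPM in the 5 day 0 libraries and at 55.4 to 62.1 CPM in the 8 day 3 libraries, a spread far smaller than the step between the days. The part of the library series in these steps was not tested. Anp32b and Hnrnpa3 have processed copies elsewhere in the genome, and reads that match several places are not counted under the options in the file headers, so their values are uncertain.

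The deepest fall was that of Lars2, the mitochondrial leucyl-tRNA synthetase. It had 2202, 11263, 5581, 10394 and 6664 CPM on day 0, and 72.2 to 104 CPM in 7 day 3 libraries with 629 CPM in d3_KO_388, a log2 change of -5.56 (SE 0.62, edgeR adjusted p = 2.4e-06). Mitochondrial ribosomal RNA took at least 6.25% of counts in each day 0 library and at most 1.67% in each day 3 library, and d3_KO_388 had the largest share of small noncoding RNA of the KO day 3 libraries, at 0.148%. The part of either in the Lars2 value was not tested. Of the other falls, 2 were of ion transporters. Slc34a2, a sodium-phosphate cotransporter of the apical membrane, fell by 2.21 (SE 0.37) from 21.9 to 88.1 CPM to 3.38 to 18.1 CPM. The sodium-sulfate cotransporter Slc13a1 fell by 1.97 (SE 0.19), from 17.1 to 25.5 CPM to 2.86 to 7.21 CPM.

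Dpysl2, a regulator of microtubules, fell by 2.81 (SE 0.13) in KO and by 2.79 in WT. The collagen Col8a1 fell by 1.94 (SE 0.33), the adhesion protein Igsf9b by 1.98, the transcription factor Zfhx3 by 1.70, Gprin3 by 1.70, and the little-studied genes 2010002M12Rik and Gm10382 by 2.25 and 1.77. Each of these 6 also fell in WT, the first 5 by 1.25, 2.27, 2.00, 1.89 and 1.48 in the same order. Slc34a2 and Slc13a1 fell in WT as well, by 3.16 and by 1.07.

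In energy metabolism the glycolysis list stood near the shares of all protein-coding genes. Of 38 genes of the hexokinase and glycolysis list tested, 15 were called higher and 1 lower, a median of 0.25 against 0.17 for all protein-coding genes, and with DESeq2 size factors 8 were higher and 3 lower. Gapdh, a glycolytic dehydrogenase with many processed copies that make its value uncertain, had 307, 339, 251, 319 and 334 CPM on day 0 and 477 to 810 CPM on day 3 with no overlap, a change of 1.00 (SE 0.13, edgeR adjusted p = 9e-06). Pdk2, the kinase that restrains pyruvate dehydrogenase, rose by 1.17 (SE 0.18), from 19.1 to 23.5 CPM to 25.3 to 59.8 CPM, and d3_KO_345 was the lowest library of day 3. Eno3, the muscle-type enolase, rose by 1.12 (SE 0.27) in KO, where the days overlapped, and in WT its change was 0.10 (edgeR adjusted p = 0.64).

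Of 73 nuclear genes of oxidative phosphorylation tested, 34 were higher and 3 lower, with a median of 0.22, and between 16 and 48 were higher over the alternatives. Complex I had 15 of 36 members higher, complex II 3 of 4, complex III 6 of 9, complex IV 2 of 10 and complex V 8 of 14. Atp5j, a coupling subunit of ATP synthase, rose by 1.16 (SE 0.11), from 74.2 to 120 CPM to 169 to 239 CPM, and Uqcrq of complex III rose by 1.00 (SE 0.11). Ndufb4 of complex I fell by 1.24 (SE 0.12), from 13.6 to 22.1 CPM to 6.51 to 9.38 CPM. In WT 37 of 73 were higher, with a median of 0.45, or 38 and 0.34 without d3_WT_381. That library stood apart in its group, with 41.7% of its counts from the mitochondrial genome, a scaling factor of 0.671 and a summed level of the list of 26014 CPM against at most 17204 CPM in the other WT day 3 libraries.

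The study's title names mitochondrial metabolism and cell death, and genes of the permeability pore and the outer membrane were mostly higher. Of 8 genes of this group, 7 were higher and 1 lower. Of 14 genes of the BCL2 family tested 6 were higher and 2 lower, near the 37.2% and 12.5% of all protein-coding genes. The BCL2 median was 0.19, against 0.17 for protein-coding genes. Ppif encodes cyclophilin D, the matrix regulator of the permeability transition. It had 70.8, 60.7, 63.4, 65.2 and 62.0 CPM on day 0 and 108 to 142 CPM on day 3, without overlap, a change of 0.98 (SE 0.08, edgeR adjusted p = 5.4e-08) and of 1.00 without d3_KO_345. In WT the change of Ppif was 1.27, and the difference from KO was -0.29 (edgeR interaction, adjusted p = 0.31). Vdac1, the outer membrane channel that binds hexokinases, had 223 to 281 CPM on day 0 and 365 to 465 CPM on day 3, a change of 0.69 (SE 0.09) in KO and 0.67 in WT.

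Within the BCL2 family Bak1, which forms pores in the outer membrane, rose by 0.86 (SE 0.14), and its antagonist Mcl1 rose by 0.73 (SE 0.10). Bmf, a BH3-only activator of death, fell by 0.87 (SE 0.28, edgeR adjusted p = 0.016), with overlapping days. Both a pore former and an inhibitor therefore rose, each without overlap between the days. Under DESeq2 size factors 8 of the 22 genes of the pore and BCL2 list were higher and 4 lower, against 13 and 3 here.

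Of 29 tested genes of necroptosis, caspases and gasdermins, 17 were higher and 1 lower, with a median of 0.44, and with DESeq2 size factors 14 and 3. Higher calls were made for 5 of 7 necroptosis genes, 3 of 8 caspases, and 9 of 14 gasdermin and inflammasome genes, with 1 lower. Tnfrsf1a, the main receptor of tumour necrosis factor, had 25.4 to 32.4 CPM on day 0 and 57.4 to 92.8 CPM on day 3, apart from 134 CPM in d3_KO_345. Its change was 1.52 (SE 0.19), or 1.37 without that library. Gsdmc2 rose by 1.44 (SE 0.28) and Gsdmc4 by 1.38 (SE 0.27). These gasdermins of the colon epithelium are close paralogs of each other, so the division of reads between them is uncertain. Gsdmc4 stood at 539, 437, 294, 832 and 289 CPM on day 0 and at 739 to 1863 CPM on day 3.

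Immediate early and heat shock genes rose almost throughout the list. Of 27 tested, 25 were higher and none lower, and 14 showed no overlap between the days, with a median of 1.41 in KO and 1.03 in WT. By role, 16 of 17 immediate early genes and 9 of 10 heat shock genes were higher, and without d3_KO_345 17 and 8. Egr1, a zinc finger factor induced rapidly by growth and stress signals, had 152, 98.2, 160, 116 and 195 CPM on day 0 and 817 to 1783 CPM on day 3, a change of 3.06 (SE 0.26, edgeR adjusted p = 1.7e-07). Zfp36, which destabilises cytokine mRNA, rose by 2.46 (SE 0.22), from 142 to 227 CPM to 598 to 1446 CPM, and the nuclear receptor Nr4a1 by 2.22 (SE 0.41).

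The chaperone Hsph1 rose by 2.28 (SE 0.45), from 19.6 to 30.2 CPM with 96.9 CPM in d0_KO_54, to 61.5 to 363 CPM. In WT 17 of 27 genes of the list were higher, and 1 gene of the list differed between genotypes at an unadjusted p under 0.05 (edgeR interaction), while none passed the adjusted threshold. Immediate early genes are known to respond to tissue handling as well.

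Genes of the circadian clock moved in part, with 8 of 17 higher and 3 lower. The repressor Nr1d1 had 49.9, 26.8, 28.1, 18.3 and 27.5 CPM on day 0 and 35.2 to 209 CPM on day 3, a change of 2.11 (SE 0.36). Per1 rose by 1.64 (SE 0.25) and Bhlhe40, a repressor that stress signals also induce, by 1.91 (SE 0.13). For Nr1d1 and Per1 the library labelled d3_KO_345 was the lowest of day 3, at 35.2 and 37.6 CPM. All 3 rose in WT too, by 2.35, 0.97 and 1.47. Clock genes vary over the day, and the time of sampling is not given.

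In the unfolded protein and integrated stress list 17 of 36 genes were higher and 3 lower, with a median of 0.35. Hspa5, the main chaperone of the endoplasmic reticulum, had 624, 450, 642, 747 and 697 CPM on day 0 and 1067 to 1725 CPM on day 3, with 2277 CPM in d3_KO_345. It rose by 1.19 (SE 0.18), and its WT change was 0.38 (edgeR adjusted p = 0.16). The disulfide isomerase Pdia3 rose by 1.36 (SE 0.12) and Ddit4, a stress-induced inhibitor of mTORC1, by 1.47 (SE 0.15). The antioxidant list had 18 of 29 genes higher and none lower, or 12 higher and 1 lower with DESeq2 size factors. Pgd of the pentose phosphate pathway rose by 1.35 (SE 0.11), from 121 to 142 CPM to 257 to 405 CPM, and the gut glutathione peroxidase Gpx2 by 0.91 (SE 0.13). In WT 21 of the 29 were higher, and the median there was 0.71 against 0.40 in KO. In the hypoxia list 9 of 19 were higher and none lower. Its member Egln3, an oxygen-sensing hydroxylase that hypoxia induces, rose by 1.16 (SE 0.22).

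**Figure D3:**
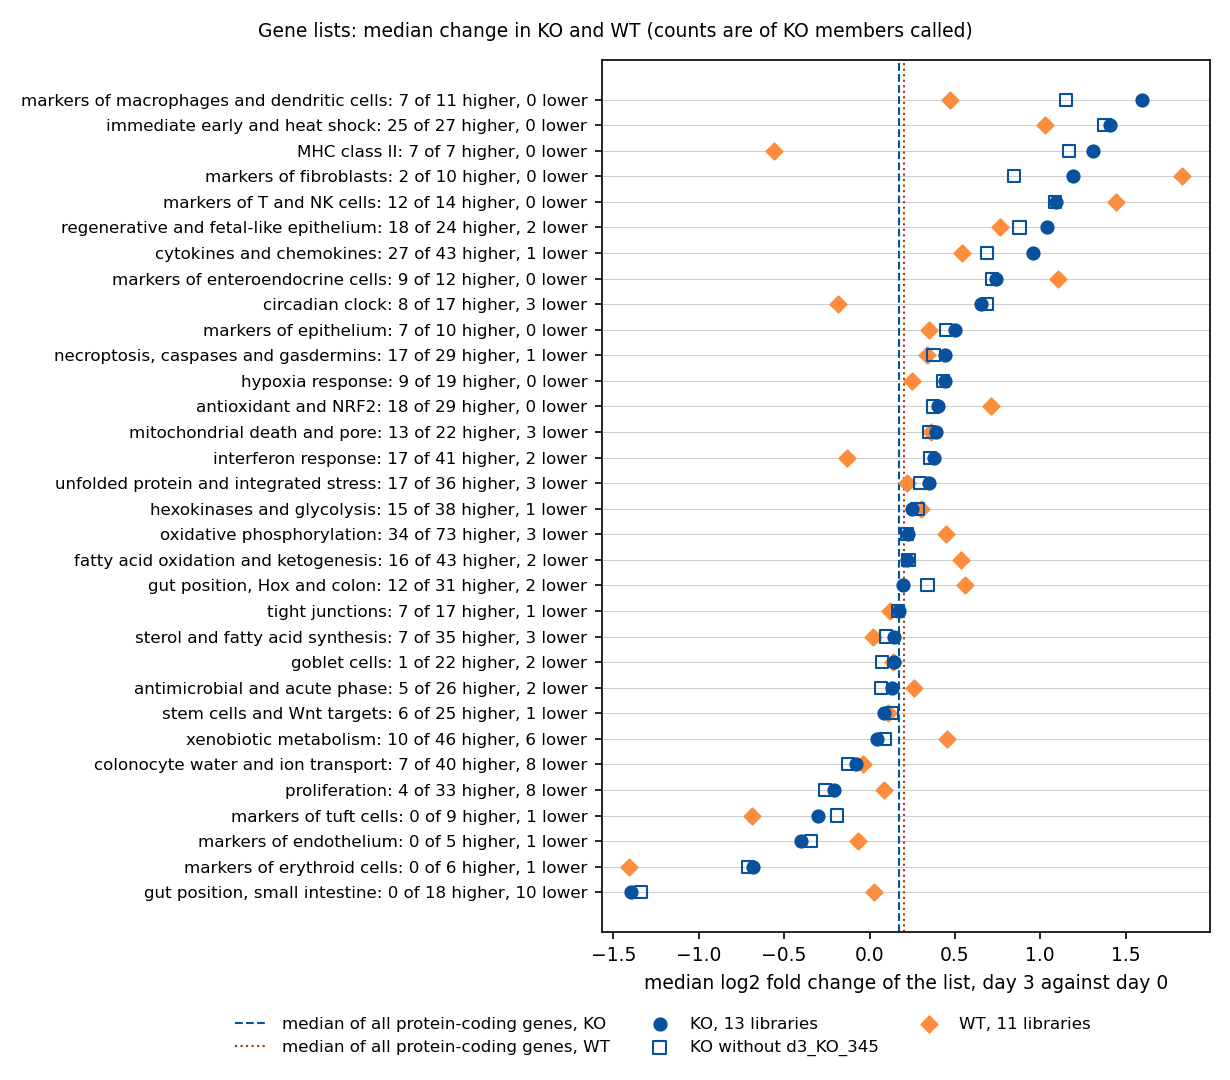
Median log2 fold change from day 0 to day 3 of each gene list with 5 or more tested members, in KO (circles), in KO without the library labelled d3_KO_345 (squares) and in WT (diamonds), with the medians of all protein-coding genes as vertical lines (0.174 in KO). Immediate early genes and markers of macrophages lie highest in KO, the small intestine list lies lowest at -1.40, and for MHC class II the KO and WT medians have opposite signs.

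Inflammatory signals were higher on day 3, and their size depended on one library. Of 43 cytokine, chemokine and receptor genes tested, 27 were higher and 1 lower, with a median of 0.96, or 0.69 without d3_KO_345. Higher calls were made for 13 of 16 chemokines, 6 of 9 cytokines and 8 of 18 receptors and feedback genes. Il1b, the inflammasome-processed cytokine, had 0.610, 0.223, 0.345, 1.19 and 1.21 CPM on day 0. On day 3 it had 2.82 to 6.33 CPM in 7 libraries and 51.6 CPM in d3_KO_345. The days did not overlap, and the log2 change was 3.80 (SE 1.00, edgeR adjusted p = 0.0051), or 2.43 without that library.

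Cxcl2, which attracts neutrophils, had 0.115 to 0.735 CPM on day 0, 1.23 to 2.43 CPM in 7 day 3 libraries and 46.9 CPM in d3_KO_345, and its change of 4.37 (SE 1.39) became 2.13 without it. The interferon-induced chemokines Cxcl10 and Cxcl9, which attract T cells, rose by 3.11 (SE 0.60) and 3.21 (SE 0.83). Cxcl10 stood at 0.427, 0.445, 0.403, 0.367 and 1.40 CPM on day 0 and at 1.95 to 13.8 CPM on day 3, without overlap. In WT the changes of Il1b, Cxcl2 and Cxcl9 were 0.66, 1.03 and 0.50 and were not called, and Cxcl10 rose by 1.97. None of the differences between genotypes passed the adjusted threshold (edgeR interaction, adjusted p = 0.26 for Il1b, 0.35 for Cxcl2 and 0.32 for Cxcl9). In KO, Il1b and Cxcl2 passed the filter on low counts only with day 3 libraries counted. A fall of either to near 0 could therefore not have been called.

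Promoters of interferon response genes often carry short elements known as GAS and ISRE. Interferon-gamma induces GTPases that attack intracellular pathogens and, by way of the coactivator CIITA, the MHC class II genes, whose promoters carry a Y box bound by NF-Y. Colon epithelium expresses little MHC class II at rest. Of 41 interferon response genes tested 17 were higher and 2 lower in KO, near the 37.2% of protein-coding genes, and 2 were higher and 5 lower in WT. Of the MHC class II genes 7 of 7 tested were higher in KO, with a median of 1.31. Without d3_KO_345 6 of 7 were higher, with a median of 1.17, and 16 of 41 interferon genes. The class II count depended on single day 0 libraries, since 4 genes were higher without d0_KO_32, 3 without d0_KO_53 and 4 without d0_KO_54. It was 5 with DESeq2 size factors, 4 with lane 1 alone or thinned counts and 3 with all 38 libraries fitted, and no member was lower under any of these. In WT 0 of 8 class II genes were called by edgeR, with a median of -0.56, or -1.21 without d3_WT_381.

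To set the sequence of these promoters beside their levels, the 250 bases before the start site of 4 of the genes named here are printed from RefSeq (GRCm38.p6), 5′ to 3′ on the strand of the gene. They show the interferon GTPases Gbp2 and Gbp5 and the class II chains H2-Aa and H2-Eb1. Capitals mark matches on either strand to the GAS letters TTCNNNGAA, the ISRE letters (GAAA, any 2 bases, GAAA) or the Y box letters CTGATTGG.
Gbp2 (chr3:142620413-142620662, plus strand): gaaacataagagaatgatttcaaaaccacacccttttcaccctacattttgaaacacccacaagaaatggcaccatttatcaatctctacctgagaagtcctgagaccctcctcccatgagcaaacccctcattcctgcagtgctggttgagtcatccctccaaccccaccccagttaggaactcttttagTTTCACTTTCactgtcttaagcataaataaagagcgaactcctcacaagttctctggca
Gbp5 (chr3:142496684-142496933, plus strand): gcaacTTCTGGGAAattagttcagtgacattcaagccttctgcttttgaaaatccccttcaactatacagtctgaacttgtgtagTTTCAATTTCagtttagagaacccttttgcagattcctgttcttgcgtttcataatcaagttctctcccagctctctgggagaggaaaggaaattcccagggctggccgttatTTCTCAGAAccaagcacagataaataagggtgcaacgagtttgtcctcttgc
H2-Aa (chr17:34287824-34288073, minus strand): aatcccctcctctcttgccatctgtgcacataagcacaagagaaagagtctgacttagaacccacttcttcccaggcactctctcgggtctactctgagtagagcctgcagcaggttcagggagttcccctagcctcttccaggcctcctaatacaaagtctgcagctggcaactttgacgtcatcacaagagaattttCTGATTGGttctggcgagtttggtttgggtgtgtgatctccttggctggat
H2-Eb1 (chr17:34305617-34305866, plus strand): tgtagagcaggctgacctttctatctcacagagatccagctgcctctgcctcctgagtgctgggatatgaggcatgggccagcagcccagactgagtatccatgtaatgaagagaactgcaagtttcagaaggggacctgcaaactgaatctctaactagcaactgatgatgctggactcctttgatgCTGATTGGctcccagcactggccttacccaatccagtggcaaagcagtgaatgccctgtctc

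Gbp2 holds an ISRE match from 59 to 50 bases before its start, on the opposite strand. Gbp5 holds GAS matches from 245 to 237 and from 52 to 44 bases before its start, and an ISRE match from 165 to 156 on the opposite strand. The Y box match lies 51 to 44 bases before the start of H2-Aa and 62 to 55 bases before that of H2-Eb1. Among all 32851 promoters in the table, 7.02% hold a GAS match, 2.98% an ISRE match and 3.83% a Y box match in the same window. Of the 38 promoters of 32 matched interferon response genes 26.3% hold a GAS and 50% an ISRE match. Of the 18 promoters of 14 matched genes that were higher in KO, 38.9% hold a GAS and 44.4% an ISRE match. The class II genes had 6 promoters for 5 matched genes, of which 2 hold a Y box match and none an ISRE match. These matches describe letters in this window and not bound sites.

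Cd74, the invariant chain that guides class II molecules to the endosome, had 17.4, 2.78, 9.55, 11.5 and 29.9 CPM on day 0 and 94.9, 22.1, 28.7, 38.9, 83.0, 35.2, 61.3 and 108 CPM on day 3. Only the day 0 library d0_KO_60 overlapped the day 3 range. The log2 change was 2.05 (SE 0.49, edgeR adjusted p = 0.0026), or 1.91 without d3_KO_345. H2-Aa, the class II alpha chain with the Y box match shown above, had 7.44, 1.45, 4.03, 5.88 and 15.4 CPM on day 0 and 8.28 to 35.1 CPM on day 3, a change of 1.46 (SE 0.47). The beta chain H2-Eb1 rose by 1.46 (SE 0.33) and the peptide exchange subunit H2-DMb1 by 1.31 (SE 0.45). No class II gene separated the days completely.

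The interferon GTPases varied widely among the day 3 mice. Gbp2 had 7.19, 2.89, 5.35, 4.32 and 14.9 CPM on day 0, and on day 3 it had 3.66 to 4.43 CPM in d3_KO_349, d3_KO_350 and d3_KO_351 but 15.8 to 82.5 CPM in the other 5 libraries. Its change of 2.24 (SE 0.82, edgeR adjusted p = 0.033) was 1.89 without d3_KO_345 (adjusted p = 0.058), and 9 alternatives ended the call. Iigp1, an immunity-related GTPase, ranged from 2.67 to 39.9 CPM on day 3 and from 0.111 to 4.11 CPM on day 0, a change of 3.34 (SE 0.84). Igtp rose by 1.75 (SE 0.41). Gbp5 rose by 1.93 (SE 0.59), from 0.0934 to 0.575 CPM to 0.458 to 2.91 CPM, levels of few counts. Iigp1 and Gbp5 passed the filter on low counts only with day 3 libraries counted, so a fall to near 0 could not have been called.

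The genotype difference in these genes was not established. The interaction was 2.74 for Cd74, 2.05 for H2-Aa, 1.58 for H2-Eb1 and 3.15 for Gbp2, with edgeR adjusted p of 0.26, 0.34, 0.33 and 0.27. In that direction 5 of 8 class II genes and 10 of 41 interferon genes had an unadjusted p under 0.05 (edgeR), against 7.79% of all protein-coding genes. Such shares were not particular to these lists. In the opposite direction they were 16 of 47 xenobiotic, 11 of 29 antioxidant, 11 of 20 small intestine and 9 of 44 fatty acid oxidation genes. Of all protein-coding genes 6.48% were in that opposite direction. The control library d0_WT_41 had 208 CPM of Cd74, 71.7 CPM of H2-Aa and 83.8 CPM of Gbp2, against at most 22.9, 10.9 and 13.8 CPM in the other WT day 0 libraries. Without it the interactions were 1.00, 0.51, 0.59 and 1.68. On day 3 the WT library d3_WT_381 in turn had the highest Cd74 of its group, at 140 CPM.

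**Figure D4:**
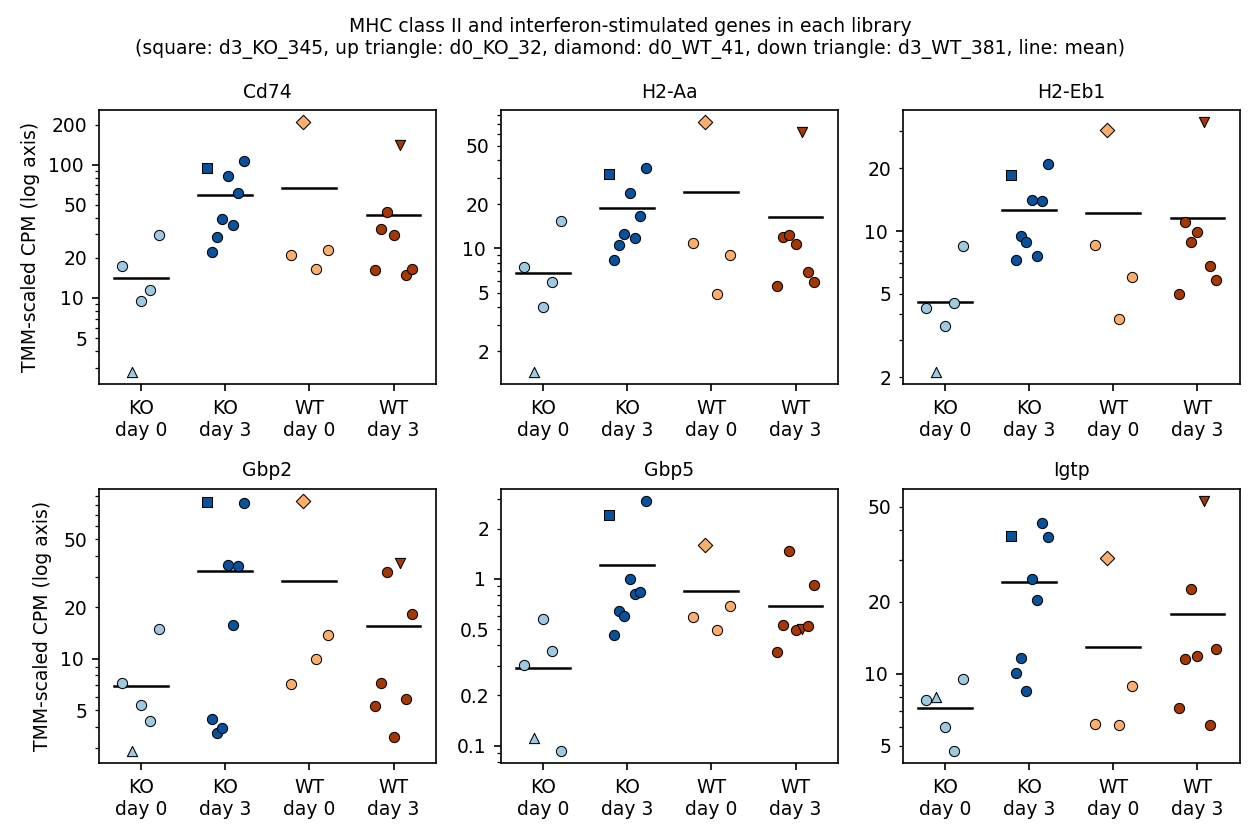
TMM-scaled CPM (log axis) of MHC class II and interferon response genes in each library of KO and WT mice on days 0 and 3, with group means as lines and the libraries d3_KO_345 (square), d0_KO_32 (up triangle), d0_WT_41 (diamond) and d3_WT_381 (down triangle) marked. In KO the day 3 points of Cd74 lie between 22.1 and 108 CPM against 2.78 to 29.9 CPM on day 0, and 1 WT day 0 library, d0_WT_41, lies at 208 CPM.

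Leukocyte markers were also higher on day 3. In bulk libraries a larger number of cells of a type and more RNA per cell cannot be told apart. Of 14 T and NK cell markers tested, 12 were higher and none lower, and their summed level was 25.5 to 56.1 CPM on day 0 and 64.1 to 88.9 CPM on day 3, without overlap. Cd3e, of the T cell receptor complex, had 0.280 to 0.854 CPM on day 0 and 1.77 to 3.80 CPM on day 3 and rose by 2.33 (SE 0.30). Granzyme B, Gzmb, rose by 1.31 (SE 0.20), from 1.34 to 4.50 CPM to 6.51 to 9.16 CPM. None of the 15 markers was at 0 in all libraries of a group, and in WT the list's median was 1.44 with 8 of 14 higher.

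Of 11 macrophage and dendritic cell markers tested 7 were higher and none lower. Their sum had a median of 30.3 CPM and reached 36.5 CPM on day 0, against 42.3 to 65.1 CPM in 7 day 3 libraries, with 170 CPM in d3_KO_345. C1qa, a complement subunit made by tissue macrophages, rose by 2.16 (SE 0.30) and by 2.14 without that library, while Lyz2, the lysozyme of myeloid cells, rose by 2.24 (SE 0.65) and by 1.54 without it. The neutrophil sum was 2.11 to 19.1 CPM on day 0 and 13.9 to 57.4 CPM on day 3, again with 170 CPM in d3_KO_345. Ly6g was the only neutrophil marker above the filter, and it rose by 1.85 (SE 0.54), or by 1.47 without d3_KO_345. On day 3 Ly6g alone had 13.9 to 55.5 CPM outside d3_KO_345 and 114 CPM in it. The ends of the day 3 range of the sum were thus almost wholly Ly6g, and the sum does not show a rise of the other neutrophil markers. The fibroblast sum was 24.7 to 50.6 CPM and then 22.1 to 184 CPM, highest in d3_KO_349 and d3_KO_345, and 2 of 10 fibroblast markers were called, both higher, against 0 with DESeq2 size factors in edgeR. Macrophages and dendritic cells express MHC class II and Il1b, and the part of these markers in the class II, interferon and cytokine values was not tested. Of 10 epithelial markers 7 were higher, and their sum was 11091 to 15061 CPM on day 0 and 15014 to 23890 CPM on day 3. Of the remaining lists, 0 of 3 B and plasma cell markers were called, 2 of 4 smooth muscle, 1 of 5 endothelial and 1 of 6 erythroid markers were lower, and 1 of 2 markers of enteric nerve and glia was higher.

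**Figure D5:**
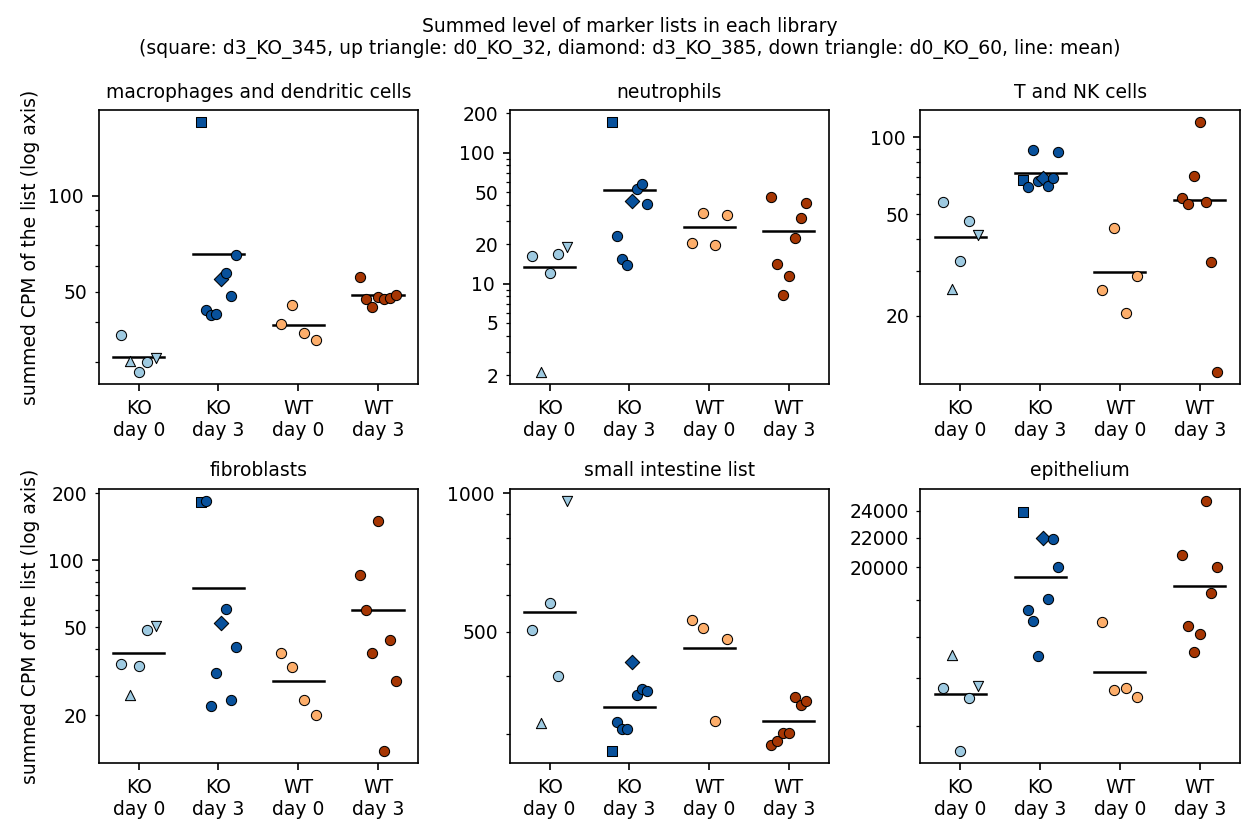
Summed TMM-scaled CPM (log axes) of marker lists for macrophages and dendritic cells, neutrophils, T and NK cells, fibroblasts, small intestine and epithelium in each library; lines are group means and special symbols mark d3_KO_345, d0_KO_32, d3_KO_385 and d0_KO_60. The library labelled d3_KO_345 (square) has 170 CPM of the macrophage list and 170 CPM of the neutrophil list, above all other libraries.

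Most regenerative epithelial genes rose, while the balance of cell cycle genes depended on the scaling and on library d0_KO_32. Of 24 genes of the regenerative and fetal-like list tested, which crypts switch on during repair, 18 were higher and 2 lower, with a median of 1.04 in KO (0.88 without d3_KO_345) and 0.76 in WT. Ereg, an epidermal growth factor family ligand, had 1.59, 2.67, 4.08, 2.75 and 3.55 CPM on day 0 and 4.25 to 29.1 CPM on day 3 without overlap, a change of 2.04 (SE 0.45). Ly6d, a surface marker of squamous and regenerating cells, was at 0 to 0.187 CPM on day 0, with at most 3 counts in a library, and at 0.331 to 8.45 CPM on day 3 (log2 change 4.73, SE 1.02). It is among the 18, but it passed the filter on low counts through day 3 alone, so only a rise could be called. Il33, an alarmin released by damaged cells, rose by 2.23 (SE 0.54). Ptgs2, the inducible cyclooxygenase, rose by 3.53 (edgeR adjusted p = 0.022) with d3_KO_345 at 16.7 CPM and by 1.89 without it, and its call ended without d0_KO_24 or without d0_KO_53.

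Of 12 stem cell markers tested 1 was higher and none lower, and of 13 Wnt targets 5 were higher and 1 lower. With DESeq2 size factors 5 of these 25 genes were higher and 7 lower. Sox9, a progenitor factor, had 33.7, 33.9, 35.1, 32.1 and 27.5 CPM on day 0 and 65.3 to 140 CPM on day 3, a change of 1.55 (SE 0.16, edgeR adjusted p = 1.5e-06). Myc rose by 0.95 (SE 0.14) and Tcf7, a Wnt effector, rose from 1.68 to 3.67 CPM to 4.60 to 7.34 CPM. Axin2, the negative feedback target of Wnt signalling, moved the other way, from 36.2 to 54.1 CPM to 8.62 to 35.9 CPM, and fell by 0.99 (SE 0.26), which was not called when all 38 libraries were fitted. Of 33 cell cycle genes 4 were higher and 8 lower, and 1 and 12 with DESeq2 size factors, but 6 and 6 without d0_KO_32. In WT 7 of the 33 were higher and 6 lower. Cdkn1a, an inhibitor of the cycle, rose by 1.55 (SE 0.16), from 57.3 to 102 CPM to 176 to 321 CPM, and the topoisomerase Top2a fell by 0.73 (SE 0.16), from 187 to 256 CPM to 71.4 to 186 CPM.

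Differentiated functions changed gene by gene. Of 22 goblet cell genes 1 was higher and 2 lower. Muc2, the gel-forming mucin, had 11337, 6374, 23777, 8249 and 8703 CPM on day 0 and 2941 to 8077 CPM on day 3, with overlap, and fell by 1.32 (SE 0.31, edgeR adjusted p = 0.0024), as in WT (-1.27). Creb3l1, a secretory pathway factor of goblet cells, rose by 1.64 (SE 0.14). Of 40 genes of colonocyte water and ion transport 7 were higher and 8 lower. With DESeq2 size factors 5 were higher and 13 lower, and with the dropped classes removed before scaling 7 and 11. Lower calls also became more frequent among all protein-coding genes under these scalings. Hsd11b2, which shields the mineralocorticoid receptor from cortisol-like hormones, had 73.9 to 105 CPM on day 0 and 200 to 300 CPM on day 3 and rose by 1.46 (SE 0.11), against 0.82 in WT. Kcnma1, a potassium channel, fell by 1.21 (SE 0.18). The proton pump Atp12a had 4.01 CPM in d0_KO_32, 66.1 to 113 CPM in the other day 0 libraries and 73.1 to 332 CPM on day 3. It rose by 1.39 (SE 0.51, edgeR adjusted p = 0.033), and 11 alternatives ended the call.

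Of 43 genes of fatty acid oxidation and ketogenesis 16 were higher and 2 lower, near the share of higher calls among protein-coding genes, and 10 and 3 with DESeq2 size factors. In WT 24 of 44 were higher and 1 lower. Acadl, a dehydrogenase of beta-oxidation, rose by 1.46 (SE 0.12), from 67.6 to 82.6 CPM to 154 to 245 CPM, and the nuclear receptor Ppard by 1.30 (SE 0.08). Cyp4b1, a fatty acid hydroxylase, fell by 1.45 (SE 0.33) in KO, from 16.2, 6.68, 35.7, 17.1 and 23.3 CPM to 3.97 to 12.8 CPM, and its change in WT was 0.76 (edgeR adjusted p = 0.063). The difference between genotypes was -2.20 (edgeR interaction, adjusted p = 0.17). Sterol and fatty acid synthesis had 7 of 35 genes higher and 3 lower, fewer higher calls than the 37.2% of protein-coding genes. Xenobiotic metabolism had 10 of 46 higher and 6 lower. With DESeq2 size factors 5 were higher and 13 lower, and with the dropped classes removed before scaling 6 and 10. Both scalings also moved protein-coding genes as a whole towards lower calls. Without d0_KO_32 9 were higher and 11 lower, and without d0_KO_24 8 and 3. In WT 22 of the 46 were higher and 3 lower. Of 17 tight junction genes 7 were higher and 1 lower, again near the background. The leaky claudin Cldn2 rose by 0.86 (SE 0.19) and Cldn7 by 0.56 (SE 0.10). Antimicrobial and acute phase genes, which include the lectins and oxidant enzymes that meet bacteria, were largely not called. Of 26 tested, 5 were higher and 2 lower, but 3 were higher and 4 lower with DESeq2 size factors, and without d0_KO_24 or d0_KO_53 only 3 and 1 were higher. Of 12 enteroendocrine markers 9 were higher, or 5 with DESeq2 size factors, including the granin Chgb, which rose by 0.92 (SE 0.20), and somatostatin, Sst, which rose by 1.19 (SE 0.20). Of 9 tuft cell markers 1 was called, and it was lower, while 0 were called without d3_KO_345 by edgeR. The summed level of the tuft list was 69.5 to 131 CPM on day 0. On day 3 it was 21.4 to 38.1 CPM in d3_KO_345, d3_KO_349, d3_KO_350 and d3_KO_351 and 87.4 to 117 CPM in the other libraries. The day 3 libraries were thus not alike in these markers, and the few calls do not mean an unchanged level in each.

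Several genes that mark the position along the gut moved with the day. Hox genes are switched on in order from front to hind gut, and the last members of the Hoxd cluster mark the most distal colon. Hoxd13 had 0.366, 0, 1.04, 0.367 and 0.0934 CPM on day 0 and 16.1, 21.6, 12.0, 55.8, 62.0, 13.4, 22.3 and 30.5 CPM on day 3, a log2 change of 6.05 (SE 0.66, edgeR adjusted p = 2.1e-06), the largest of the 12 rises. Its neighbours Hoxd10 and Hoxd12 had no count in any KO day 0 library and means of 1.79 and 1.06 CPM on day 3. Against a floor of 3 counts over the day 0 group these are at least 38.4-fold and at least 22.8-fold higher. Hoxd11 had 1 count in the day 0 group and a mean of 2.90 CPM on day 3, a ratio of 187 with a 95% exact Poisson interval of 33.5 to 7370 that covers counting error only. In WT Hoxd13 rose by 4.61, from 0.366 to 3.38 CPM to 1.32 to 62.2 CPM. Over the whole list of Hox and colon genes 12 of 31 were higher and 2 lower, a share of higher calls near the 37.2% of all protein-coding genes. Hoxd10, Hoxd11 and Hoxd12 are among the 12, but they passed the filter on low counts through day 3 alone, so only a rise could be called. Hoxd13, also among the 12, passed it only with day 3 libraries counted, so a fall to near 0 could not have been called.

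Small intestine genes moved the other way, with 0 of 18 tested higher and 10 lower, a median of -1.40 in KO and 0.03 in WT. The summed level of the list was 317 to 961 CPM on day 0 and 276 to 429 CPM on day 3. Apoa1, an apolipoprotein of absorptive enterocytes, had 2.87, 1.00, 17.2, 0.826 and 70.6 CPM on day 0 and 0.0892 to 0.439 CPM in 7 day 3 libraries with 3.75 CPM in d3_KO_385, and fell by 4.79 (SE 1.05), or by 3.08 without d0_KO_60. Apoa4 had 0.549, 0.557, 2.76, 0 and 11.0 CPM on day 0 and at most 0.501 CPM on day 3, a log2 change of -5.25 (SE 1.08). Outside d3_KO_385 its day 3 level was at most 0.0255 CPM. Apoa4 is among the 10, but it passed the filter on low counts mainly through day 0, so only a fall could be called. The brush border peptidase Enpep fell by 2.48 (SE 0.56) and sucrase-isomaltase, Sis, by 2.01 (SE 0.49), from 4.76, 2.00, 19, 5.33 and 28.9 CPM to 1.41 to 5.10 CPM. The day 0 values were highest in d0_KO_60 and next highest in d0_KO_53 for each of these 4 genes. Over the alternatives between 6 and 17 members of the list were lower, with 6 without d0_KO_60. The segment of gut from which each library came is not given in the labels, and its part in these and the other changes was not tested.

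Most genes called in KO were also called in WT, in the same direction. WT day 3 against WT day 0 gave 8594 of 17156 genes (50.1%), 4738 higher and 3856 lower, and among protein-coding genes 32.3% were higher and 14.1% lower. Of 13407 protein-coding genes tested in both, 3421 were higher in both and 1165 lower in both, and 10 were called in opposite directions. The genes higher in both are 68.4% of the KO and 77.1% of the WT higher calls, and those lower in both are 70.2% and 63.3% of the lower calls. The 2 contrasts use different animals but the same pair of library series.

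A test of the difference between the 2 changes called 0 of 18304 genes with edgeR (0%), while 2500 had an unadjusted p under 0.05 (13.7%) and DESeq2 called 80, 25 higher and 55 lower in KO relative to WT. The gene with the smallest p was Skil, a SKI family repressor of TGF-beta signalling. It had 84.4 to 110 CPM in KO day 0 and 91.4 to 128 CPM in KO day 3, where the change of 0.20 was not called, but 129 to 163 CPM in WT day 0 and 76.4 to 111 CPM in WT day 3. The interaction was 0.82 (edgeR adjusted p = 0.11, DESeq2 adjusted p = 0.0012). Naaladl1, a peptidase of the absorptive brush border, fell by 0.78 in KO, from 33.6 to 68.5 CPM to 21 to 38.1 CPM, and rose by 0.60 in WT, from 19.4 to 32.1 CPM to 28.5 to 48.3 CPM. Its interaction was -1.38 (edgeR adjusted p = 0.11, DESeq2 adjusted p = 0.0012). Both genes differed between genotypes on day 0, with KO below WT for Skil without overlap, and KO above WT for Naaladl1 without overlap.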

How the data were processed

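RNA was measured by paired-end sequencing of 1 library per mouse, and the deposited files give, per the file headers, raw counts of read pairs per gene for each of 2 lanes, made with featureCounts 1.6.2 with strand ignored and no option for multi-mapping or overlapping reads. Per the submitters' processing notes Trim Galore, STAR, featureCounts 1.5.2 and GRCm38 were used. The 2 lane counts were summed for each of the 38 libraries, 46078 gene identifiers in all, of which 45143 were matched to GENCODE M21 for gene type. Groups were taken from the titles. Members, gene lists and tests were chosen with earlier results of these data known.

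The quasi-likelihood test of edgeR 4.0.16 (R 4.3.3) was fitted on the whole table of 24 libraries of days 0 and 3 for scaling (TMM) and on the compared groups for the test, after edgeR's filter on low counts, with Benjamini-Hochberg adjustment and a call at an adjusted p under 0.05. A gene with almost no counts on day 0 passed that filter through day 3 alone. Genes low in some day 0 libraries, such as Casp14, passed it only with day 3 libraries counted. Apoa4, with almost no counts in most day 3 libraries, passed it mainly through day 0. Every adjusted p comes from edgeR unless DESeq2 (1.42.0) is named. Afterwards 6191 genes of 3 classes (named Hist or mt-, or small noncoding) were left out of the counts by group. The difference between genotypes was an interaction term. The genes named were the 12 largest rises and falls described in the report, up to 4 called members of each list with the largest change together with the hexokinases, Ppif and Vdac1, and the 4 interaction genes with the smallest p, of which some are described. Total counts of 10.5 to 47.6 M per KO library set the precision, and levels under 3 counts are not read as presence. Scripts were tested on simulated data. Alternatives were other size factors, DESeq2, other filters, the dropped classes or all noncoding genes removed first, 1 lane, robust dispersions, all libraries fitted together, a 2-fold threshold, thinned counts and each library left out. Leaving out d3_KO_345 and d0_KO_32 together, and the 2 libraries with Xist counts, was chosen after seeing the data. Promoter sequences are from RefSeq (GRCm38.p6), and 250 bases before each start were searched.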

Additional observations from a re-analysis of the deposited data

Results flagged for a closer look

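In 36 of 222 groups of 4 to 8 libraries examined, the highest or lowest library lay far from the others. The rule flags about 5% of groups, or 1 in 20, when levels are independent and normally distributed. Levels here were untransformed CPM of genes from the same libraries, so an excess over 5% was not measured. The library labelled d3_KO_345 was the outlying one 15 times, in each case as the highest of KO day 3. Its levels were 442 CPM of Hk2, 1.58 CPM of Hk3, 134 CPM of Tnfrsf1a, 181 CPM of Phlda1 and 356.1 CPM of Hnrnpa3. It had 373 CPM of Il1rn, 189 CPM of F3, 46.9 CPM of Cxcl2, 51.6 CPM of Il1b and 13.8 CPM of Cxcl10. It also had 321 CPM of Cdkn1a, 5.75 CPM of Il33, 16.7 CPM of Ptgs2, 45.8 CPM of Lyz2 and 114 CPM of Ly6g.

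Among the other day 3 KO libraries, d3_KO_350 was highest for Gsdmc2 (812 CPM), d3_KO_387 for 2010002M12Rik (9.36 CPM) and d3_KO_388 for Lars2 (629 CPM). The small intestine genes Apoa4 (0.501 CPM), Apoa1 (3.75 CPM) and Enpep (7.19 CPM) were highest in d3_KO_385.

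On day 0, d0_KO_60 was highest for Apoa4 (11.0 CPM), Apoa1 (70.6 CPM) and Cxcl10 (1.40 CPM), and d0_KO_53 was highest for Muc2 (23777 CPM) and lowest for Anp32b (10.9 CPM). Library d0_KO_54 was highest for Hsph1 (96.9 CPM), and d0_KO_24 held the only count of Hoxd11 (0.0610 CPM). Library d0_KO_32 was highest for Top2a (256 CPM) and lowest for Bhlhe40 (78.0 CPM).

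In WT only 11 genes were examined, against 101 in KO day 3, so the outlying values listed here do not cover the WT libraries as a whole. Library d0_WT_41 had 83.8 CPM of Gbp2, 208 CPM of Cd74 and 71.7 CPM of H2-Aa, and d3_WT_381 had 140 CPM of Cd74, 33.1 CPM of H2-Eb1 and 61.7 CPM of H2-Aa.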

How the results depend on the processing

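Over 2492 recomputed values of 100 genes, Hk2 included, 2428 kept direction and side of the threshold, 55 were no longer called, 9 were newly called and 0 reversed. These counts leave out the 2-fold threshold, which by itself ends the call of genes with smaller changes. Of 98 called genes, 89 kept their call under every alternative apart from that threshold. Nearly all of these genes were named because they were called in the main fit, many for large changes. Their stability was therefore partly fixed by the choice. Over all genes, 6574 of 8312 calls tested again with DESeq2 size factors were kept in the same direction. The Hk2 change in KO was no longer called with DESeq2 size factors (0.91), TMM over the 2 groups alone (0.99), the DESeq2 test (0.91), a mean CPM of at least 1 (1.04), the 3 gene classes removed first (0.96), protein-coding genes only (0.90), lane 1 alone (0.95), robust dispersions (1.04), thinned counts (0.88), or without d3_KO_345 and d0_KO_32 (0.38). Leaving out 1 library gave 0.56 to 1.25, and 8 of these 13 fits also ended the call. Hk2 accounts for 18 of the 55 lost calls. At a change of at least 2-fold 2595 genes were called in KO and 3476 in WT. WT calls were 5439 with protein-coding genes only and 5425 with thinned counts. For the difference between genotypes DESeq2 called 80 genes, and leaving out 1 library gave 0 to 1 with edgeR, the 1 without d3_KO_349. The causes were not tested. Leaving out 1 library gave 7384 to 8871 genes in KO. Gbp5, H2-Aa and H2-DMb1 lost their calls under 2, 1 and 7 alternatives, with adjusted p (edgeR) of up to 0.0641, 0.0506 and 0.0852. No paired analysis was possible because the compared groups share no replicate number. Depth on day 0 limits genes under 0.286 CPM.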
